A study of Mus musculus with 6 samples.

Results

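The ADAMTS proteases are secreted metalloproteinases that cut proteins of the extracellular matrix. The 10 genes described here were taken by name from the expression table: Adamts1, Adamts2, Adamts4, Adamts5, Adamts6, Adamts7, Adamts9, Adamts10, Adamts12 and Adamts15. All 10 were found among its 26532 genes. The RNA came from MEFs (fibroblasts cultured from mouse embryos), labelled as mesenchymal stem cells, and was sequenced. In the GFP group (3 libraries, genotype WT) the cells had been given an adenovirus carrying green fluorescent protein, and in the ORAI2 group (3 libraries, genotype ORAI2 Overexpression) an adenovirus carrying ORAI2, a pore subunit of store-operated calcium channels. Both groups carry the treatment label osteogenic differentiation. The promoter driving ORAI2 and the length of treatment are not stated in the labels. Nor do the labels say that replicate libraries are separate cultures, so the spread behind each p-value may be technical.

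Each ADAMTS enzyme is made with a propeptide that proprotein convertases remove, a catalytic domain that holds a zinc ion, and a tail of thrombospondin repeats that ties the enzyme to its surroundings. The family divides by substrate. Adamts1, Adamts4, Adamts5, Adamts9 and Adamts15 encode proteoglycanases, which cut versican or aggrecan. ADAMTS2 trims the amino end of procollagen, ADAMTS7 and ADAMTS12 cut cartilage oligomeric matrix protein (COMP), and ADAMTS6 and ADAMTS10 act at fibrillin microfibrils. In skeletal and connective tissue these enzymes are known for the turnover of cartilage proteoglycan and the assembly of collagen fibrils.

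The catalytic site is what the members share. The stretches below are 48 bases of coding sequence each, read from the GENCODE M21 transcripts of the mouse build GRCm38, 5′ to 3′ on the coding strand, in the transcript with the longest coding part. They span the 12 codons of the zinc-binding motif with 2 codons on either side. Capitals mark the codons of the 3 histidines, the glutamate, the residue at the eighth codon and the closing aspartate.
Adamts1: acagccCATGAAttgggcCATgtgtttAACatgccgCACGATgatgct
Adamts4: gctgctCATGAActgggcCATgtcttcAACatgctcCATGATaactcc
Adamts9: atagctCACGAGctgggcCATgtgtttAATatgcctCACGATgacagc
Adamts15: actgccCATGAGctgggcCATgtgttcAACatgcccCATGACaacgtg
Adamts5: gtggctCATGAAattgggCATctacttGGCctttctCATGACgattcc
Adamts2: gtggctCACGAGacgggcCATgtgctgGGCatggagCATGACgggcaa
Adamts7: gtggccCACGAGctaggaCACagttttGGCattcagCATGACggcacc
Adamts12: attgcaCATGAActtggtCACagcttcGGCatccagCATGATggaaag
Adamts6: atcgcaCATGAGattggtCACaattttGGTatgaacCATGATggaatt
Adamts10: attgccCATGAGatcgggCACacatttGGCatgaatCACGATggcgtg
The motif was found once in each of the 10 genes. The eighth codon is AAC or AAT in 4 members and GGC or GGT in the other 6. Over the 48 bases the most alike were Adamts4 and Adamts15, at 81.2% identity, and the least alike were Adamts4 and Adamts6, at 50%. The 3 genes that fell in the ORAI2 libraries, described next, came from both kinds.

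Adamts4, Adamts5 and Adamts6 were lower in the ORAI2 libraries, by 1.42-fold, 1.37-fold and 1.42-fold, and no member was called higher. Of the 10 members, 3 fell, 4 were tested and not called, and 3 had too few counts to be tested. Calls were made where edgeR's quasi-likelihood test over 13764 genes gave a Benjamini-Hochberg adjusted p below 0.05, which 42.9% of them did, 20.8% higher and 22.1% lower. Of the 7 tested members 3 were called, and all 3 were lower. With 7 members, taken with earlier results of these data known, no test of their share against all genes was made and nothing about the family is read from it. DESeq2 and limma-voom called 0 members higher as well, whereas 3 of the 15 fits to the counts, described below, called Adamts1 higher. At an unadjusted p under 0.05, where edgeR had 50.3% of all tested genes, it had 4 members, the added one being Adamts1, which was higher. The 7 tested members had a median log2 fold change of -0.45, which was -0.28 without the scarce Adamts2 (left out after its values were seen), and the median over all tested genes was 0.00.

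**Figure D1:**
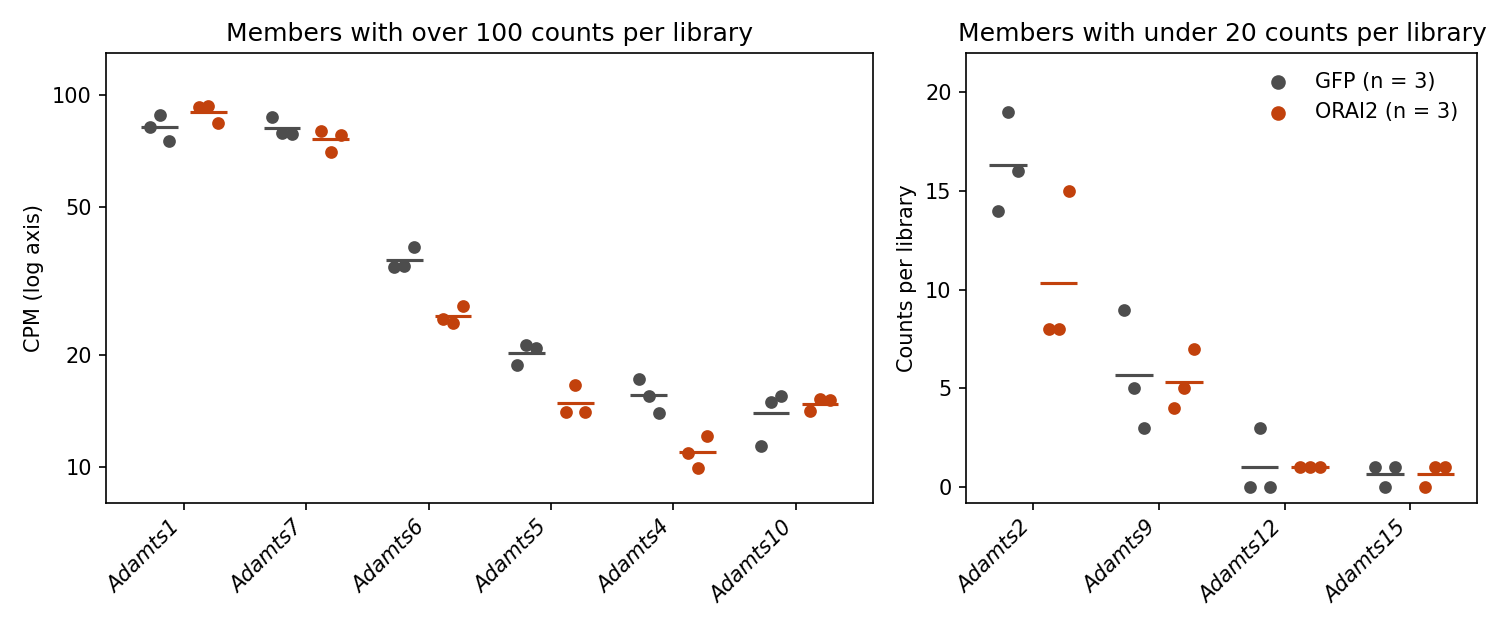
Level of each member in each library (points) with the group mean (bars), as CPM on a log axis for the 6 abundant members on the left and as counts for the 4 scarce ones on the right. The ORAI2 libraries lie below the GFP libraries for Adamts4, Adamts5 and Adamts6, and the groups overlap for the others.

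Orai2, the gene carried by the virus, had between 909 and 994 counts with GFP and between 45140 and 67882 with ORAI2. Total counts per library were between 18526884 and 18844436. Fibroblast genes such as Pdgfrb, Prrx1 and Vim were abundant, whereas the surface marker Thy1 had between 1 and 3 counts per library. The 9 tested of 10 fibroblast and mesenchymal markers were all lower in the ORAI2 libraries, beside 22.1% of all tested genes. Their summed levels were 7920 to 8490 CPM in GFP and 6310 to 6790 CPM in ORAI2 (CPM is the count scaled to the library total). Of 5 osteoblast genes found, 3 were tested and not called. Among them, Spp1, the gene of the bone matrix protein osteopontin, was at 610 CPM in GFP and 545 in ORAI2, Runx2, the early regulator of that lineage, at 71.3 and 66.7 CPM, and Alpl below 1 CPM in both. The other two, Sp7 and Bglap, had at most 4 counts in a library. Of 6 macrophage markers in the table, 2 of 3 tested fell, with summed levels of 51.9 to 55.6 CPM in GFP and 26.7 to 35.9 CPM in ORAI2. Of 6 endothelial markers both tested ones, Kdr and Vwf, rose, beside 20.8% of all tested genes. The summed levels of the 6 were 6.42 to 8.88 CPM in GFP and 16.3 to 17.5 CPM in ORAI2. Single genes of other lists moved too. The smooth muscle marker Tagln rose (1.94 to 5.56 CPM), as did the epithelial Grhl2 (0.50 to 2.37 CPM). The neural Nes (123 to 154 CPM) and the chondrocyte regulator Sox9 (13.5 to 16.2 CPM) also rose, whereas the glial Mbp fell (2.87 to 1.595 CPM). The epithelial Krt18 was tested and not called (2.48 to 2.12 CPM). The remaining genes of these lists that were in the table had at most 9 counts in a library. The defining markers Ptprc, Csf1r, Pecam1, Cdh5 and Cldn5 had at most 7 counts in any library. In these bulk libraries fewer cells of a type and less RNA per cell cannot be told apart, and the part that any of these markers has in the results below was not tested.

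Among the proteoglycanases, Adamts4 encodes an aggrecanase. Its GFP counts were 325, 290 and 259 and its ORAI2 counts 202, 186 and 224, so that every ORAI2 library lay below every GFP library. The level went from 15.6 ± 1.66 to 10.97 ± 1.08 CPM (SD, n = 3 each), a log2 fold change of -0.51 with a standard error of 0.10 (adjusted p = 0.00172, edgeR quasi-likelihood test).

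Adamts5 encodes the other main aggrecanase of cartilage. Its counts were 355, 397 and 388 in GFP and 260, 310 and 260 in ORAI2, again without overlap. The level went from 20.3 ± 1.29 to 14.9 ± 1.48 CPM (SD, n = 3 each), a log2 fold change of -0.45 with a standard error of 0.09 (adjusted p = 9.36e-04, edgeR). The 95% intervals of Adamts5 and Adamts4, -0.64 to -0.27 and -0.73 to -0.28, lie largely over each other.

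Adamts1 encodes a versican- and aggrecan-cutting enzyme and was, with Adamts7, one of the most abundant members. It had 1553, 1653 and 1404 counts in GFP and 1727, 1753 and 1561 in ORAI2. The groups overlapped, since the lowest ORAI2 library lay below the highest GFP library. The log2 fold change was 0.13, with a 95% interval of 0.01 to 0.26 (adjusted p = 0.0864, edgeR), so it was not called. Without GFP replicate 2 or without ORAI2 replicate 3 it passed as higher, with log2 fold changes of 0.19 in each case (adjusted p = 0.0337 and 0.0310, edgeR).

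Adamts9 and Adamts15, which encode versican-cutting enzymes, were near or under the limit of detection. Adamts9 had 9, 5 and 3 counts in GFP and 4, 5 and 7 in ORAI2, a total of 17 against 16. Adamts15 had 2 counts in all in each group. A difference was not detectable at this depth, where a count of 0 in a library allows up to 3 counts, or between 0.159 and 0.162 CPM. These limits cover counting error only.

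Adamts1 and Adamts5 are next to each other among protein-coding genes in the RefSeq order of GRCm38.p6, with no other protein-coding gene between them. The ratio of Adamts1 to Adamts5 counts within a library, which does not depend on library size, was 4.37, 4.16 and 3.62 in GFP and 6.64, 5.65 and 6 in ORAI2. All ORAI2 ratios lay above all GFP ratios (means 4.05 ± 0.39 and 6.1 ± 0.50, SD, n = 3 each). An exact two-sided permutation test gave p = 0.1, also after adjustment over the 2 ratios tested here, which is the smallest p that 3 against 3 libraries allow. Both ratios were chosen after the members' values were seen.

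**Figure D2:**
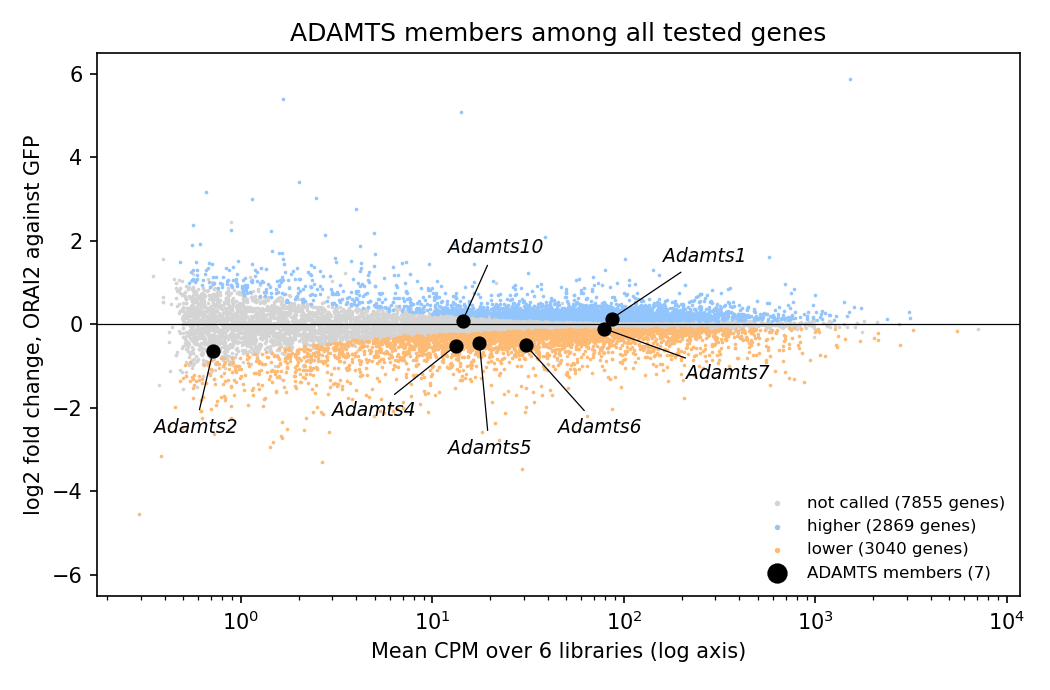
Log2 fold change against mean CPM over the 6 libraries for the 13764 tested genes, coloured by call, with the 7 tested ADAMTS members in black. Adamts4, Adamts5 and Adamts6 lie among many other genes called lower, and Adamts1 and Adamts7 lie near 0.

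The procollagen-trimming member, Adamts2, was scarce. It had 14, 19 and 16 counts in GFP and 8, 8 and 15 in ORAI2, and ORAI2 replicate 3 lay among the GFP libraries. The log2 fold change was -0.65 with a 95% interval of -1.39 to 0.09 (adjusted p = 0.146, edgeR). The interval holds both no change and a fall of more than a log2 unit. Adamts2 passed the low-count filter, which asks for about 10 counts in at least 3 libraries, through the GFP libraries. Its GENCODE M21 transcripts share stretches of sequence, on either strand, with 76 other genes, more than those of any other member. Whether reads from those genes entered its counts was not tested.

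Adamts7, whose enzyme cuts COMP, was with Adamts1 one of the most abundant members. It had 1647, 1479 and 1460 counts in GFP and 1491, 1313 and 1445 in ORAI2. The groups overlapped. The log2 fold change was -0.10 with a 95% interval of -0.23 to 0.02 (adjusted p = 0.179, edgeR), which leaves out a fall of the size seen for Adamts4, Adamts5 or Adamts6. It shares 1.9% of its exonic bases with Tbc1d2b on the opposite strand. Adamts12, whose enzyme also cuts COMP, had 3 counts in all in each group and no detectable difference. Comp, the gene of that substrate, had 4, 6 and 5 counts in GFP and 9, 9 and 7 in ORAI2, too few to be tested.

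Of the microfibril members, Adamts6 gave the smallest p in the family. It had 649, 649 and 726 counts in GFP and 465, 456 and 502 in ORAI2, with no overlap between the groups. The level went from 36.1 ± 2.60 to 25.5 ± 1.41 CPM (SD, n = 3 each), a log2 fold change of -0.50 with a standard error of 0.07 (adjusted p = 5.68e-05, edgeR). Among all tested genes, 26.4% had every ORAI2 library below every GFP library, as Adamts4, Adamts5 and Adamts6 did.

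Adamts10, which encodes the other microfibril member, had 215, 280 and 288 counts in GFP and 262, 284 and 280 in ORAI2, where GFP replicate 1 was low and the other 5 libraries were alike. The log2 fold change was 0.08 with a 95% interval of -0.15 to 0.31 (adjusted p = 0.558, edgeR). Without GFP replicate 1 it was -0.04. The ratio of Adamts6 to Adamts10 counts was 3.02, 2.32 and 2.52 in GFP and 1.77, 1.61 and 1.79 in ORAI2, again without overlap (exact two-sided permutation test, p = 0.1, the smallest possible).

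**Figure D3:**
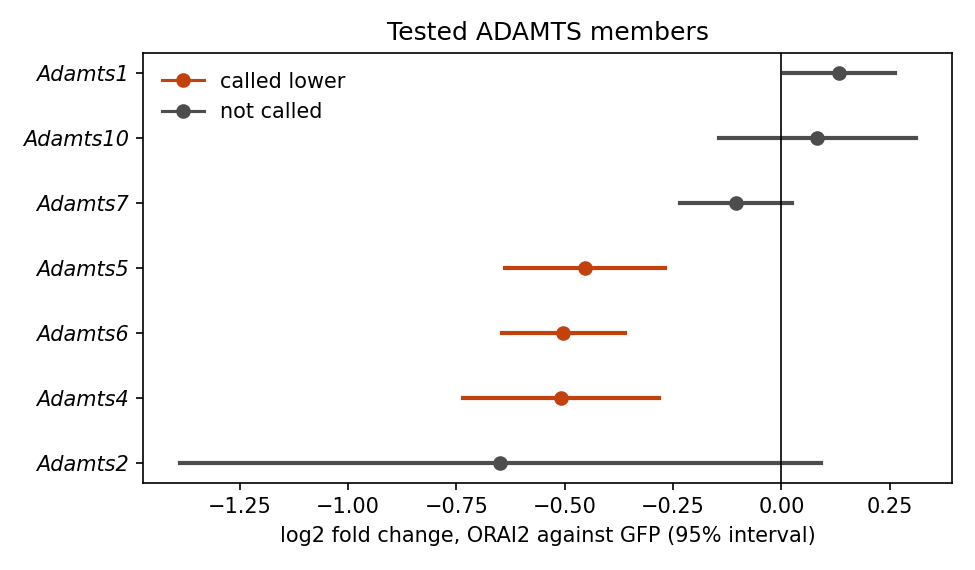
Log2 fold change of the 7 tested members, ORAI2 against GFP, with 95% intervals from the edgeR fit. The intervals of Adamts4, Adamts5 and Adamts6 lie wholly below 0, and that of Adamts2 is the widest, from -1.39 to 0.09.

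**Figure D4:**
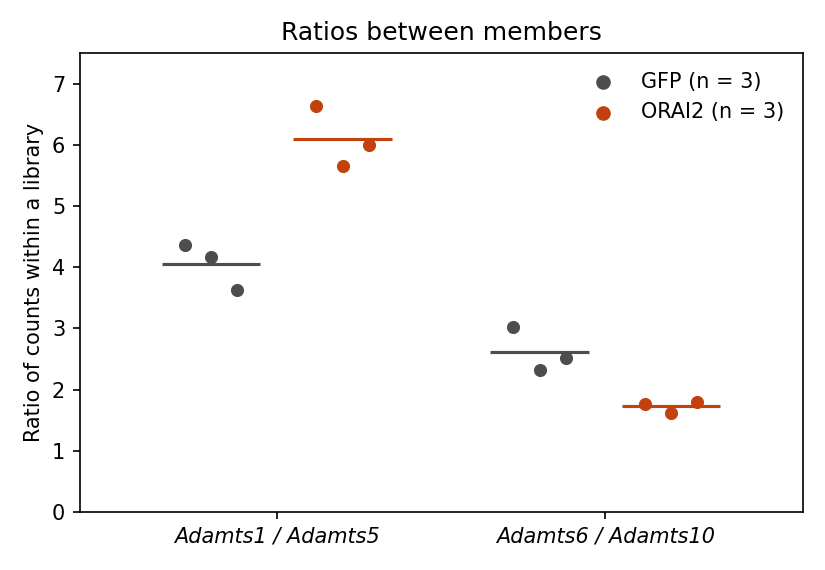
Ratio of the counts of 2 members within each library (points) with the group mean (bars). The ratio of Adamts1 to Adamts5 is 3.62 to 4.37 in GFP and 5.65 to 6.64 in ORAI2, and that of Adamts6 to Adamts10 is 2.32 to 3.02 and 1.61 to 1.79.

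The calls for Adamts4, Adamts5 and Adamts6 held in all 15 fits to the counts. The deposited TPM columns (transcripts scaled to the library total) gave other results. The TPM column named ORAI2-3 held Orai2 at 36.33, the level of the GFP columns, so it went against its name. In the TPM columns numbered 1 and 2, limma called 18% of all genes and 1 of the members, Adamts6, and Adamts4 and Adamts5 had log2 fold changes of -0.39 and -0.37 (adjusted p = 0.138 each).

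Levels of different genes were compared as CPM per kilobase of the longest annotated transcript (RPKM). In GFP, Adamts1 was at 16.8 ± 1.32 and Adamts7 at 15.2 ± 0.92 RPKM (SD, n = 3 each), and their libraries overlapped. Then came Adamts6 at 4.69 ± 0.34, Adamts4 at 3.55 ± 0.38 and Adamts10 at 3.39 ± 0.54 RPKM, the last 2 overlapping, and Adamts5 at 1.88 ± 0.12 RPKM. Adamts2 was at 0.12 RPKM and the remaining 3 were below 0.04. Adamts1 and Adamts7 together made up 70.0% of the members' summed RPKM in GFP and 74.9% in ORAI2.

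In the ORAI2 libraries the order among the middle members was different. Adamts10 stood at 3.59 ± 0.15 and Adamts6 at 3.32 ± 0.18 RPKM, with overlapping libraries, and Adamts4 at 2.50 ± 0.25 RPKM lay below both. Adamts1, at 18.5 ± 1.08 RPKM, lay above Adamts7, at 14.2 ± 0.99 RPKM, with no overlap of their libraries. Within each single library Adamts1 lay above Adamts7 in GFP as well (16.9, 18.1 and 15.5 against 16.2, 14.7 and 14.6 RPKM). The order depends on the length used. With the median transcript length Adamts6 led Adamts10 and Adamts4 in both groups. At that length Adamts1 was at 35.1 and Adamts7 at 16.5 RPKM in GFP.

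Of 9 other ADAMTS protease genes, 7 were matched and 1 had enough counts to be tested, Adamts14, a relative of ADAMTS2 that trims procollagen. It had 120, 143 and 116 counts in GFP and 90, 115 and 74 in ORAI2, and it fell by 0.44 on the log2 scale (standard error 0.15, adjusted p = 0.0364, edgeR). The groups did not overlap in CPM, though ORAI2 replicate 2 came close to GFP replicate 3. Adamts3 had no count in any library, and Adamts8, Adamts13, Adamts16, Adamts17 and Adamts19 had at most 5 in a library.

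The ADAMTS-like genes encode related matrix proteins that lack the catalytic domain. Of 7 such genes, 3 were tested, and 1 fell and 1 rose. Adamtsl4, which encodes a fibrillin-binding protein, went from 21.0 ± 0.66 to 11.6 ± 1.17 CPM (log2 fold change -0.86, standard error 0.09, adjusted p = 6.04e-06, edgeR). Adamtsl5 rose from 23.8 ± 0.95 to 29.0 ± 1.83 CPM (log2 fold change 0.28, standard error 0.06, adjusted p = 0.00380, edgeR). Thsd4, at 0.77 and 1.13 CPM, was not called (log2 fold change 0.55, adjusted p = 0.119).

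Of the proteoglycan genes Vcan, Acan, Bcan and Ncan, only Vcan, the gene of versican, had enough counts to be tested. It had 2512, 2678 and 2637 counts in GFP and 3389, 2942 and 3625 in ORAI2, so that all ORAI2 libraries were higher. Vcan rose from 140 ± 5.38 to 178 ± 19.5 CPM (log2 fold change 0.35, standard error 0.06, adjusted p = 7.59e-04, edgeR), the opposite direction from Adamts4 and Adamts5. The genes of aggrecan, brevican and neurocan (Acan, Bcan and Ncan) had at most 10 counts in a library.

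The other substrate genes that had enough counts to be tested were all lower in the ORAI2 libraries. Of all tested genes, 22.1% were called lower. The lists were chosen with earlier results of these data known, and nothing about substrates as a class is read from these counts. Col1a1, Col1a2 and Fn1 are also among the fibroblast and mesenchymal markers above. All 5 tested of 6 procollagen genes cut by ADAMTS2, ADAMTS3 and ADAMTS14 fell, with a median log2 fold change of -1.38. They included Col5a1 and Col5a2, chains of type V collagen, at -0.72 and -0.71 (adjusted p = 4.15e-08 and 5.72e-08, edgeR). All 7 tested of 10 other matrix substrates fell too, with a median of -0.75. Fbn1, the gene of fibrillin-1 and a microfibril partner of ADAMTS6 and ADAMTS10, went from 724 ± 36.4 to 432 ± 12.5 CPM (log2 fold change -0.75, adjusted p = 8.90e-08, edgeR). Bgn (biglycan) fell by 1.02, Thbs2 (thrombospondin-2) by 1.06 and Nid1 (nidogen-1) by 0.35 on the log2 scale, and Sdc4 (syndecan-4) fell by 0.20.

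The tested genes of metalloproteinase inhibitors and of enzyme clearance were lower as well. All 4 tested of 6 genes of inhibitors and clearance fell, a list chosen in the same way, beside 22.1% of all tested genes. Timp3, the tissue inhibitor known to act on aggrecanases, had 14899, 14450 and 16315 counts in GFP and 9234, 10235 and 10388 in ORAI2, with a log2 fold change of -0.61 and a standard error of 0.05 (adjusted p = 2.02e-06, edgeR). Timp1 and Timp2 fell by 0.41 and 0.16 on the log2 scale. Lrp1, the endocytic receptor that clears several ADAMTS enzymes from the medium, went from 1595 ± 40.8 to 1254 ± 74.5 CPM (log2 fold change -0.35, adjusted p = 5.02e-05, edgeR).

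Of 6 genes of activation and folding, 4 were tested, and 1 rose. Furin, a convertase that removes such propeptides, rose from 65.8 ± 6.47 to 77.1 ± 1.45 CPM (log2 fold change 0.23, standard error 0.06, adjusted p = 0.00895, edgeR). Pofut2 and B3glct, which add sugars to thrombospondin repeats, had log2 fold changes of 0.07 and 0.01 and were not called, nor was Pcsk7 at 0.06.

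**Figure D5:**
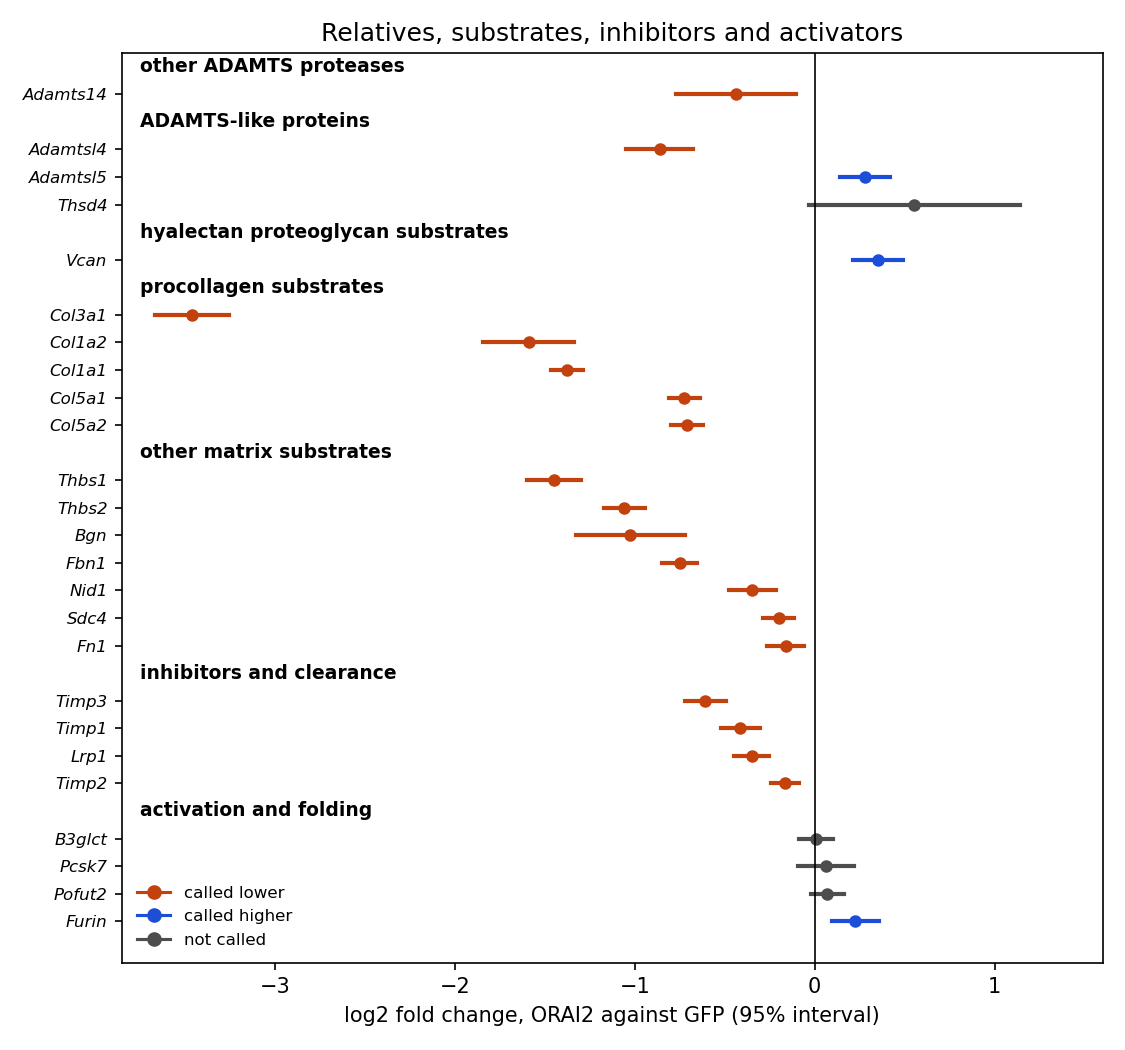
Log2 fold change with 95% interval for the tested genes of each list around the ADAMTS members, coloured by call. Vcan, Adamtsl5 and Furin lie above 0, whereas the collagen, matrix and inhibitor genes lie below it, down to -3.46 for Col3a1.

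The genes whose pattern was most like that of Adamts4, the called member with the largest fold change, were Ube2cbp, Ldlrad4 and Pagr1a. Likeness was the Euclidean distance between log2 CPM profiles centred over the 6 libraries, among 10119 genes whose mean was 5 CPM or more, and the distances were 0.137, 0.139 and 0.142. Their own log2 fold changes were -0.43, -0.50 and -0.44. Distances of this kind follow the difference between the groups and carry no test.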

How the data were processed

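TRIzol was used to extract RNA, per the labels' protocols, and mRNA was purified on oligo(dT) beads, fragmented and primed with random hexamers. The submitters' processing notes name HISAT2 2.0.4, Salmon 1.4.0 and the build GRCm39 without their roles. Annotation and strand use are not stated there. The authors deposited whole-number counts and TPM values for each Entrez gene, per the file headers. No source states if these counts are rounded estimates. The TPM columns disagreed with the like-named counts and were kept for alternatives only. Symbols came from a RefSeq table of GRCm38.p6, which matched 25631 numbers (96.6%), and lengths and overlaps from GENCODE M21.

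Counts were tested with edgeR 4.0.16 in R 4.3.3 (glmQLFit, glmQLFTest, TMM, filterByExpr with a minimum count of 10), ORAI2 against GFP. Standard errors come from the F statistic. Levels are CPM without TMM, whose factors were between 0.9897 and 1.0065. Libraries of a group differed by more than sampling noise (chi-square per gene 2.54 to 4.50). Steps were tested on simulated data. Alternatives used other scalings and filters, DESeq2 1.42.0, limma 3.58.1, a replicate block and each library left out. Fits to the TPM columns (log2 of TPM plus 0.5) were added after the data were seen. All 10 members were named, with examples from the called genes of each list, the genes most like the strongest called member, and other listed genes as values. Members and lists were chosen with earlier results of these data known. The result of a further gene is not reported here.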

Additional observations from a re-analysis of the deposited data

Results flagged for a closer look

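Orai2 stood out in the deposited TPM columns, which entered no main comparison. The columns ORAI2-1 and ORAI2-2 held it at 1429.5 and 1241.34 TPM. The 3 GFP columns held between 24.83 and 38.19 TPM, and column ORAI2-3 was at that level too, with 36.33 TPM. Across 8915 abundant genes no TPM column matched the counts of its own name best. The columns named GFP-1 and GFP-2 correlated most with the counts of GFP replicates 2 and 3 (0.585 and 0.582). Those named ORAI2-1 and ORAI2-2 did so with the counts of ORAI2 replicates 2 and 3 (0.787 and 0.722). The columns named GFP-3 and ORAI2-3 correlated most with the counts of GFP replicate 1 and ORAI2 replicate 1, at 0.43 and only 0.223.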

How the results depend on the processing

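Over 14 other fits to the counts, the number of members called was 3 or 4 and that of all genes called between 4825 (DESeq2) and 6246 (replicate block), and Adamts4, Adamts5 and Adamts6 stayed lower, with log2 fold changes of -0.59 to -0.42, -0.53 to -0.41 and -0.54 to -0.45. Leaving out each library in turn gave 3 to 4 members and 4943 to 5661 genes called. Same-numbered libraries deviated together only weakly (correlations 0.136, 0.073 and 0.126), though more than libraries of unlike number (-0.138 to 0.018). The labels do not say that same-numbered libraries are paired. With the replicate block, 4 members and 6246 genes were called, and Adamts1 passed as higher (log2 fold change 0.13, adjusted p = 0.0137, edgeR). Its adjusted p ran from 0.0137 to 0.309 over the fits to counts. Adamts10 changed sign without GFP replicate 1 (-0.039, where the highest value with a library left out was 0.157) and in the TPM fits (-0.034 with 6 columns and -0.045 with columns 1 and 2), and was called in none of them.

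With limma on all 6 TPM columns, 22 genes and 0 members were called (1206 genes and 0 members at an unadjusted p under 0.05). With columns 1 and 2 alone, 2365 genes and 1 member were called. Adamts4, Adamts5 and Adamts6 remained below 0 in both TPM fits, at -0.24, -0.42 and -0.25 with 6 columns. The cause was not tested. Depth limits Adamts2, Adamts9, Adamts12 and Adamts15, which had at most 19 counts in a library.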

Other observations

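The TPM columns numbered 3 stood apart from the others for several members, in both groups alike. Adamts4 was at 11.43 TPM in the column named GFP-3 and 11.95 TPM in that named ORAI2-3, against 3.00 to 4.76 TPM in the other 4 columns. Adamts7 was at 44.39 and 44.90 TPM there, against 24.82 to 28.74 TPM. Adamts6 was lower in those columns, at 4.36 and 5.58 TPM, against 6.80 to 11.31 TPM.

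Among the relatives under the low-count filter, Adamts16 had 4, 2 and 5 counts with GFP and 1, 2 and 0 with ORAI2.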
